A study of Mus musculus with 3 samples.

Results

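Genes for 10 transporters of the blood-brain barrier were followed across the cell classes of the aged mouse hippocampus and along its vascular tree. The genes were chosen by name (Abcb1a, Abcg2, Slc2a1, Slc7a5, Slco1a4, Slco1c1, Slc16a1, Mfsd2a, Slc38a5 and Slc3a2), and all 10 were found among the 31053 genes of each count table. The samples were 3 single-cell libraries (replicates 1, 2 and 3) of the 10x Chromium 3′ chemistry, made from dissociated hippocampus of wild-type C57BL/6 mice labelled 2-year-old (replicate 3 carries 25 months in its title), with papain digestion and removal of myelin by beads. There was no young, treated or mutant group, so every comparison below is between cell populations of the same libraries. The libraries are not tied to animals in the labels. With the library as a block, the p-values rest on how differences between populations vary over these 3 libraries. That variation may be technical.

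Cells were assigned by marker genes, none of which is a transporter of the list. A barcode counted as endothelial when Cldn5, Flt1 and Pecam1 were all detected and no other class's gate was met, which held for 2130, 377 and 1557 cells in replicates 1, 2 and 3, 4064 of 12115 kept barcodes. The comparison classes were astrocytes (2335 cells), ependymal cells (803) and microglia (1720) in all 3 libraries, and border macrophages (188), pericytes (173) and oligodendrocyte precursor cells (OPC, 287) with at least 20 cells in replicates 1 and 3 alone. Endothelial cells were called arterial with 2 or more of Gkn3, Sema3g and Bmx (823 cells), venous with 2 or more of Ackr1, Lrg1, Vwf and Il1r1 (442 cells), and other endothelial with neither (2735 cells), while 64 cells that met both rules were set aside. Levels are UMIs (unique molecular identifiers, counted molecules) of a gene per 1000000 UMIs of the population, abbreviated CPM. Intervals and floors cover counting error only.

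The libraries held 7185668 to 45716237 UMIs, and replicate 2 was the smallest with 1062 barcodes. Libraries shared 2 to 12 barcodes, at most 0.282% of the smaller library. Summed levels of the 3 endothelial gate genes lay between 9441 and 10332 CPM in endothelial cells and between 37.2 and 405 CPM in the other 6 classes compared. Replicate 2 stood apart in its zone markers. Gkn3 reached 231 CPM in its arterial cells against 1222 and 1382 CPM in those of replicates 1 and 3, and Ackr1 reached 6.40 CPM in its venous cells against 119 and 96.9 CPM, so calls that changed without it are given below. Genes outside the zone rules, chosen after the data had been seen, sorted with the labels only in part. The arterial genes Efnb2 and Hey1 were higher in arterial than in other endothelial cells (log2 change ± SE 1.49 ± 0.08 and 2.12 ± 0.10), and the venous transcription factor Nr2f2 was higher in venous than in other endothelial cells (2.01 ± 0.10). Alpl and Vegfc, also arterial genes, were higher in arterial cells (1.70 ± 0.07 and 4.05 ± 0.13). Icam1, a venous gene, was higher in venous (2.48 ± 0.08) and lower in arterial cells (-0.66 ± 0.09). The capillary genes Rgcc and Cxcl12 were lower in arterial (-0.40 ± 0.09 and -0.57 ± 0.08) and in venous cells (-1.07 ± 0.10 and -1.23 ± 0.08). Against this, the venous adhesion gene Vcam1 was higher not in venous cells alone (3.81 ± 0.09) but also in arterial cells (0.88 ± 0.09). The capillary gene Car4, lower in arterial cells (-3.87 ± 0.15), was higher in venous than in other endothelial cells (0.39 ± 0.11).

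Brain endothelial cells are joined by tight junctions, so nutrients, hormones and lipids enter the brain largely through membrane carriers, and many drugs are pumped back into the blood by ATP-driven efflux pumps. Abcb1a encodes P-glycoprotein and Abcg2 the breast cancer resistance protein, the main efflux pumps of this barrier in mice. Slc2a1 encodes the glucose carrier GLUT1, Slc16a1 the lactate and ketone body carrier MCT1, and Mfsd2a the carrier of lysophosphatidylcholine that brings docosahexaenoic acid into the brain and restrains vesicular transport. Slc7a5 and Slc3a2 encode the light and the heavy chain of the large neutral amino acid exchanger LAT1, and the heavy chain also serves other light chains and integrins in many cell types. Slc38a5 encodes a glutamine carrier, Slco1a4 an organic anion carrier and Slco1c1 a thyroxine carrier.

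Promoter windows show how unlike the DNA in front of these genes is. They are the 250 bases before the RefSeq start (GRCm38.p6), available for 9 of the 10 genes in 11 windows. A window of each of 4 genes is given 5′ to 3′ on the gene's strand. They are shown because these carriers parted in the data below: Slco1a4 was nearly limited to endothelial counts, while Slco1c1, Slc16a1 and Mfsd2a were each also found in a further class. Capitals mark matches on either strand to AGGAAG (ETS core), CTTTGA (TCF/LEF core), TGATGNAA (ATF4 element) or ACGTG (HIF core).
Slco1a4 (chr6:141856221-141856470, minus strand): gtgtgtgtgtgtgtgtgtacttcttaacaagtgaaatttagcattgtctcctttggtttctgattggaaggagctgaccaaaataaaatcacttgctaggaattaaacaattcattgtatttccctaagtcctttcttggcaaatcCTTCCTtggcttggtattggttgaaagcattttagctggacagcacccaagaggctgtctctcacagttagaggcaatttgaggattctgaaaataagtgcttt
Slco1c1 (chr6:141524104-141524353, plus strand): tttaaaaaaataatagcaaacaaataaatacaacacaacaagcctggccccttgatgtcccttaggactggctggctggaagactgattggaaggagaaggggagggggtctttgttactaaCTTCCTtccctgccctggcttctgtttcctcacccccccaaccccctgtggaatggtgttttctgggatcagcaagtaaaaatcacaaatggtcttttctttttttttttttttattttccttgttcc
Slc16a1 (chr3:104638414-104638663, plus strand): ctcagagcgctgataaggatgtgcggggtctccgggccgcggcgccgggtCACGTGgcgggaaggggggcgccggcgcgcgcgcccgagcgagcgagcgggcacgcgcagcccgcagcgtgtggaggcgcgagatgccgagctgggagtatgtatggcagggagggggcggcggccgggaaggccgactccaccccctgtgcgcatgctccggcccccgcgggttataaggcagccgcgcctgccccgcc
Mfsd2a (chr4:122961189-122961438, minus strand): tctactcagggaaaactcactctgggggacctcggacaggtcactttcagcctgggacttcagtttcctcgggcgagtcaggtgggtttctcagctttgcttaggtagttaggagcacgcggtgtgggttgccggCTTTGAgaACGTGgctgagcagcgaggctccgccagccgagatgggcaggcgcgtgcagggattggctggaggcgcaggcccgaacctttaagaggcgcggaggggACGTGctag

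The windows of Slco1a4 and Slco1c1 held 0 CpG dinucleotides and 39.2% and 42.8% G+C, and that of Abcb1a also held 0 CpG at 40.4% G+C. Over all 32851 promoter windows the median was 6 CpG and 52.4% G+C, and 7.87% had no CpG. The Slc16a1 window held 37 CpG at 76.4% G+C and the Mfsd2a window 17 CpG at 61.6%. AGGAAG, found in 29.5% of all windows, occurred in the Slco1a4 and Slco1c1 windows with 1 match each, and also in those of Abcb1a (2 matches) and Abcg2. ACGTG, found in 16.6% of all windows, occurred in the Slc16a1 window as a CACGTG palindrome, whose strands count as 2 overlapping matches, at 2 separate places in the Mfsd2a window, and also in those of Slc2a1, Slc38a5 and Slc3a2. CTTTGA, found in 13.8% of all windows, occurred in the windows of Mfsd2a, Slc3a2 and Abcb1a, and TGATGNAA, found in 3.45%, in no window of the 9 genes. These matches are letters and not binding sites. The RefSeq windows of Abcb1a and Slc3a2 do not lie at the start of the annotated gene given below. For Abcg2, 2 of the 3 windows, which begin at 58596422 and 58640296, lie inside the annotated gene. The Slc38a5 window (8271131 to 8271380) also lies almost wholly inside its gene, which is annotated from 8271133.

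All 10 transporter genes were higher in endothelial cells than in the mean of the other 6 classes, taken over their log levels. Classes with low levels pull this mean down, so the fold differences below are not ratios of mean CPM. For Slc2a1, mean CPM was 2740 in endothelial cells and 177 over the other 6 classes. The call rule was an adjusted p under 0.05 from edgeR's quasi-likelihood test with the library as a block, and 29.7% of the 13508 genes tested outside the gates were called higher by it (45.9% in either direction). The split over all genes, 4013 higher and 2191 lower, depended on the scaling and was 3123 and 2863 with RLE and 3042 and 4802 with DESeq2, with a median log2 change of 0.06, -0.13 and -0.19. Abcb1a showed a 146-fold difference (log2 7.19 ± 0.22), Slco1a4 122-fold (6.93 ± 0.22), Slco1c1 51.0-fold (5.67 ± 0.16) and Abcg2 47.8-fold (5.58 ± 0.15). Slc16a1, Slc2a1 and Slc7a5 showed 28.7-fold, 28.0-fold and 26.6-fold differences, Mfsd2a 14.2-fold (log2 3.83 ± 0.18) and Slc3a2 2.94-fold (1.55 ± 0.16). The fitted change of Slc38a5, 9.45 ± 0.29, depends on the prior count because some classes had 0 UMIs, and bounds are given further on. The largest adjusted p of these 10, for Slc3a2, was 8.06e-09. All 10 were higher in each of the 3 libraries, and the calls were kept in all 13 alternative settings tried, among them each library left out.

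**Figure D1:**
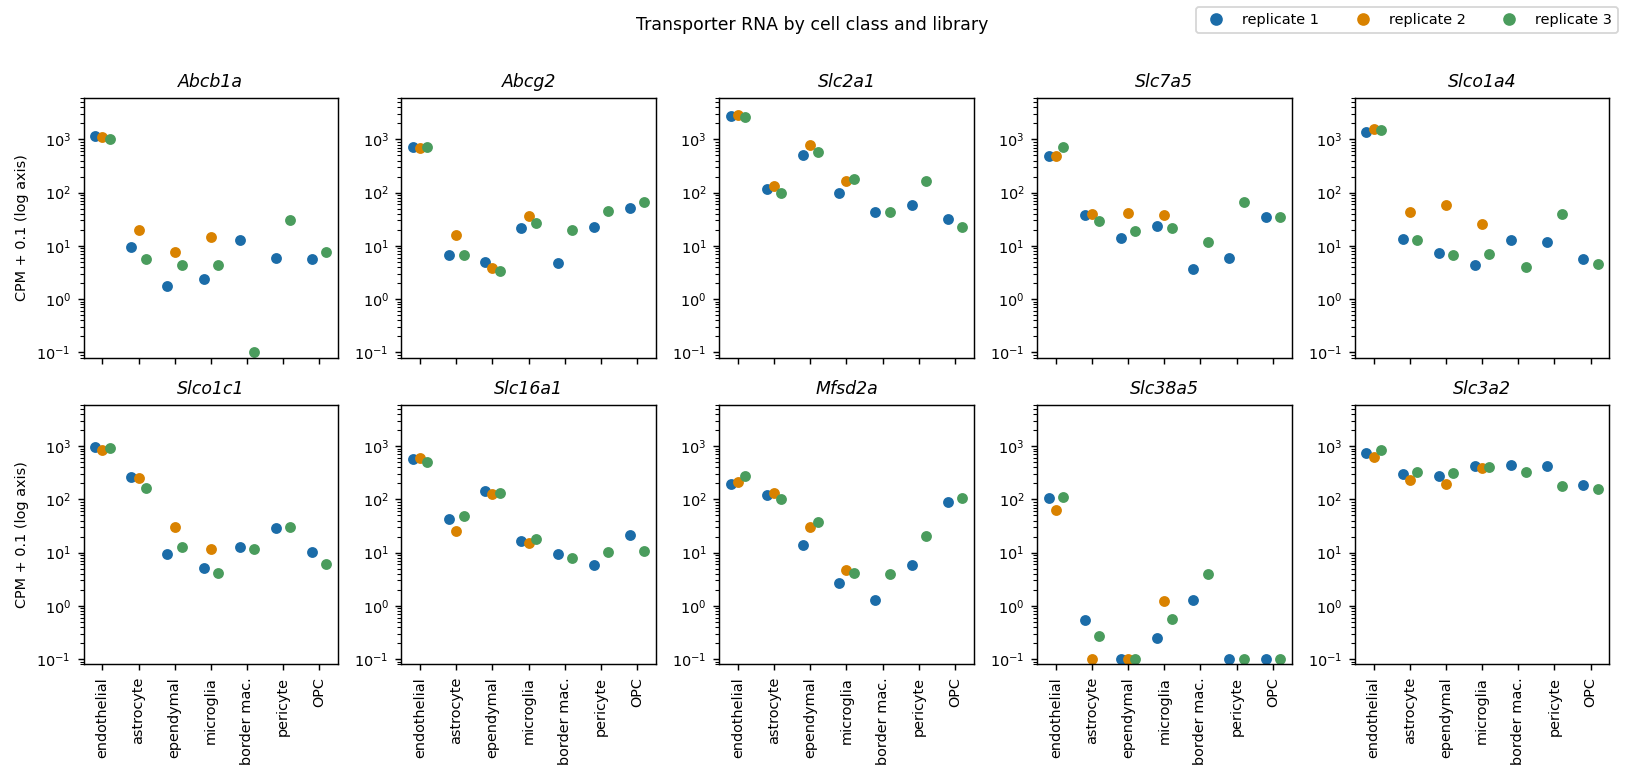
Levels of the 10 transporter genes in 7 cell classes, in CPM + 0.1 on a log axis, with a point per library and class (blue replicate 1, orange replicate 2, green replicate 3, and no point where a class had fewer than 20 cells). Endothelial points are the highest in every panel, the Slc3a2 panel is the flattest, and points at the bottom edge are classes with 0 UMIs.

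Of the efflux pumps, Abcb1a was low in every other class, while Abcg2 kept a higher share of its endothelial level in OPC, pericytes and microglia. Abcb1a stood at 1162, 1096 and 1038 CPM in endothelial cells of replicates 1, 2 and 3, against class means of 4.45 to 18.1 CPM elsewhere. Its level in the other classes was thus 0.405% to 1.64% of the endothelial one. Abcg2 stood at 722, 687 and 711 CPM in endothelial cells, against 59.0 CPM in OPC, 34.3 CPM in pericytes, 28.4 CPM in microglia and 3.98 to 12.2 CPM in ependymal cells, astrocytes and border macrophages. No other class overlapped the endothelial libraries for either pump. The Abcg2 level was 8.36% of the endothelial one in OPC, 4.85% in pericytes and 4.02% in microglia. The pericyte value rests on 13 UMIs in 2 libraries. It is near the 4.17% that a set of other endothelial genes, described next, reached in pericytes.

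A set of 10 other endothelial genes (Ly6a, Ly6c1, Itm2a, Egfl7, Cdh5, Tie1, Emcn, Esam, Erg and Pltp), chosen after the data had been seen, gives a scale for endothelial RNA met in barcodes of other classes. Their median level was 0.850% of the endothelial level in OPC, 1.46% in astrocytes, 0.898% in ependymal cells, 0.789% in microglia, 2.33% in border macrophages and 4.17% in pericytes. Single genes of the set reached 65.7% (Pltp in ependymal cells) and 54.3% (Emcn in pericytes). Abcb1a and Slco1a4 lay within 1.74% in every class, and their values in astrocytes, 1.06% and 1.55%, were near the median of the set. How much of the low levels came from free RNA or mixed barcodes was not tested.

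**Figure D2:**
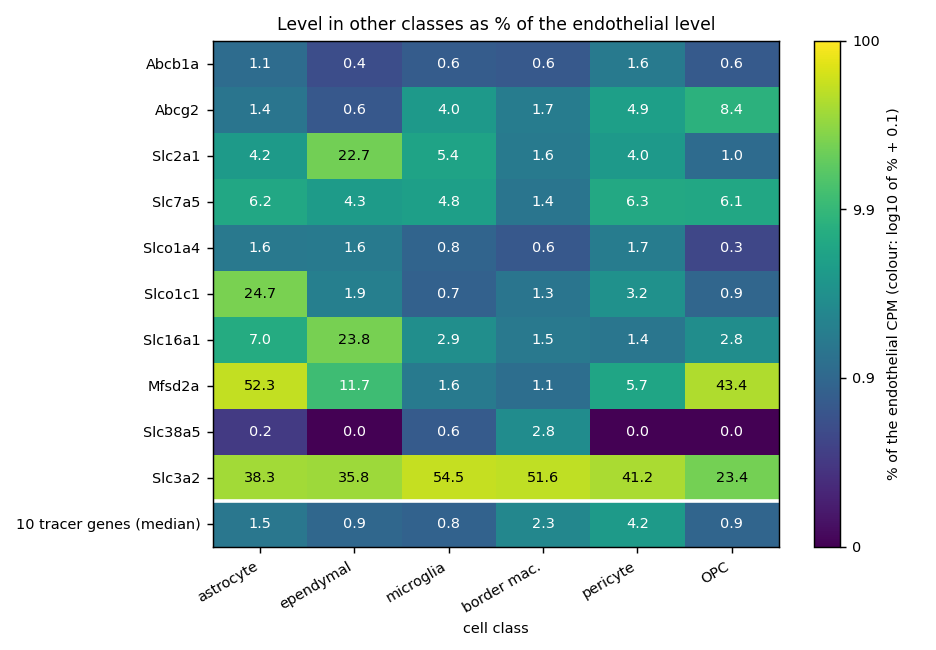
Mean level of each transporter gene (rows) in 6 other classes (columns) as a percentage of its endothelial mean, with the median of 10 other endothelial genes in the last row. The colour follows the log10 of the percentage + 0.1. The highest cells of the grid are Slc3a2 in microglia at 54.5%, Mfsd2a in astrocytes at 52.3% and Slc3a2 in border macrophages at 51.6%.

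The organic anion and thyroxine carriers parted in astrocytes. Slco1a4 stood at 1357, 1598 and 1519 CPM in endothelial cells, against 13.3, 43.5 and 12.7 CPM in astrocytes of the same libraries. Slco1c1 stood at 983, 854 and 909 CPM in endothelial cells, against 258, 253 and 167 CPM in astrocytes. The astrocyte level of Slco1c1 was 24.7% of the endothelial one, while its other 5 classes lay between 0.747% and 3.23%. Endothelial cells exceeded astrocytes by 2.14 ± 0.21 on the log2 scale for Slco1c1 and by 6.47 ± 0.37 for Slco1a4 (adjusted p 1.21e-09 and 4.23e-14, edgeR). Shares of cells with a UMI were taken after thinning to 2000 UMIs, with cells of fewer UMIs left out. In replicate 1 this kept 951 of 1442 astrocytes and 2064 of 2130 endothelial cells. Unthinned shares, here and below, are over all cells of the population. A UMI of Slco1c1 was seen in 81.4% of thinned endothelial cells, 34.2% of thinned astrocytes and 1.42% of thinned microglia (unthinned 94.8%, 50.1% and 5.73%).

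The lipid carrier Mfsd2a was shared with astrocytes and OPC. It stood at 194, 212 and 277 CPM in endothelial cells, against 123, 133 and 102 CPM in astrocytes. OPC, measured in replicates 1 and 3, had 91.1 and 107 CPM, and microglia 2.62, 4.55 and 4.04 CPM. The endothelial and astrocyte libraries did not overlap, and the difference was 1.01 ± 0.19 on the log2 scale against astrocytes and 1.81 ± 0.24 against OPC. A UMI of Mfsd2a was seen in 35.7% of thinned endothelial cells, 22.4% of thinned astrocytes and 0.842% of thinned microglia (unthinned 67.1%, 35.0% and 2.77%).

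The glucose and the lactate carrier were shared with ependymal cells, the ciliated cells that line the ventricles. Slc2a1 stood at 2742, 2833 and 2644 CPM in endothelial cells, against 516, 773 and 577 CPM in ependymal cells. Slc16a1 stood at 570, 606 and 504 CPM in endothelial cells, against 143, 126 and 131 CPM in ependymal cells. The ependymal levels were 22.7% and 23.8% of the endothelial ones, with log2 differences of 2.43 ± 0.23 and 2.32 ± 0.19, and no library of the classes overlapped. In the other 5 classes Slc2a1 lay between 27.5 and 147 CPM, and Slc16a1 between 7.94 and 39.0 CPM. A UMI of Slc2a1 was seen in 98.2% of thinned endothelial cells, 71.5% of thinned ependymal cells and 20.4% of thinned microglia (unthinned 99.2%, 81.8% and 45.6%).

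The chains of the amino acid exchanger differed in how far they were endothelial. The light chain Slc7a5 stood at 489, 497 and 716 CPM in endothelial cells, against class means of 7.67 to 35.8 CPM, or 1.35% to 6.30% of the endothelial level. The heavy chain Slc3a2 stood at 746, 630 and 839 CPM in endothelial cells, against 422, 386 and 399 CPM in microglia and class means of 172 to 381 CPM in the other 5 classes. Both chains were highest in replicate 3, as was Mfsd2a. Slc3a2 was called higher in endothelial cells against each class but microglia, where the log2 difference was 0.50 ± 0.22 (adjusted p 0.0583, edgeR, interval of 2 SE 0.06 to 0.94). So 10 of 10 genes were called higher against astrocytes, ependymal cells, border macrophages, pericytes and OPC, where 30.6%, 30.8%, 18.7%, 13.1% and 27.1% of all genes were, and 9 of 10 against microglia, where 29.1% were.

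The glutamine carrier Slc38a5 was the least abundant gene of the list and had the fewest UMIs elsewhere. It stood at 105, 62.1 and 110 CPM in endothelial cells. No UMI was found in ependymal cells, pericytes or OPC, while 4, 5 and 2 UMIs were found in astrocytes, microglia and border macrophages. With a floor of 3 counts over the group, the endothelial level was at least 187-fold higher than in ependymal cells, at least 48.0-fold higher than in OPC and at least 11.4-fold higher than in pericytes, whose few UMIs set the limit. In thinned cells a UMI was seen in 11.1% of endothelial cells (unthinned 23.6%) and 0.419% of microglia (unthinned 0.510%). Of all Slc38a5 UMIs in kept barcodes, 91.4%, 86.3% and 89.3% lay in endothelial cells of replicates 1, 2 and 3, against 63.1%, 71.4% and 55.4% of the Slc3a2 UMIs.

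Single endothelial cells carried most of the list together. Of the 10 genes, a thinned endothelial cell showed a median of 7 in each library, and 27.2%, 27.7% and 35.5% of cells showed 8 or more. Astrocytes, ependymal cells and microglia showed a median of 1 in each library. After Slc2a1 and Slco1a4 (91.4%), the share of thinned endothelial cells with a UMI was 85.6% for Abcb1a, 73.2% for Abcg2, 71.6% for Slc3a2, 59.5% for Slc7a5 and 52.5% for Slc16a1.

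Along the vascular tree the carriers differed in direction. Between arterial and other endothelial cells, 7 of the 10 genes were called by edgeR's test with the library block, 6 lower and 1 higher in arterial cells, where 15.9% of the 10548 genes tested outside the gates were called, 6.46% lower and 9.42% higher. Between venous and other endothelial cells, 4 of the 10 were called, 3 lower and 1 higher, where 9.36% of genes were, 4.42% lower and 4.94% higher. Both comparisons use the same other endothelial cells. Between arterial and venous cells all 10 were called, 7 lower and 3 higher in arterial cells, where 18.8% of genes were called, 8.61% lower and 10.2% higher. Without the library block the counts were 3, 1 and 3. Some of these calls were fragile. Over 14 alternative settings, the call of Abcb1a between arterial and venous cells was kept in 5. Between arterial and other endothelial cells, the call of Slc3a2 was kept in 7 of 14 settings, and those of Abcg2 and Slc2a1 in 9 of 14 each.

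**Figure D3:**
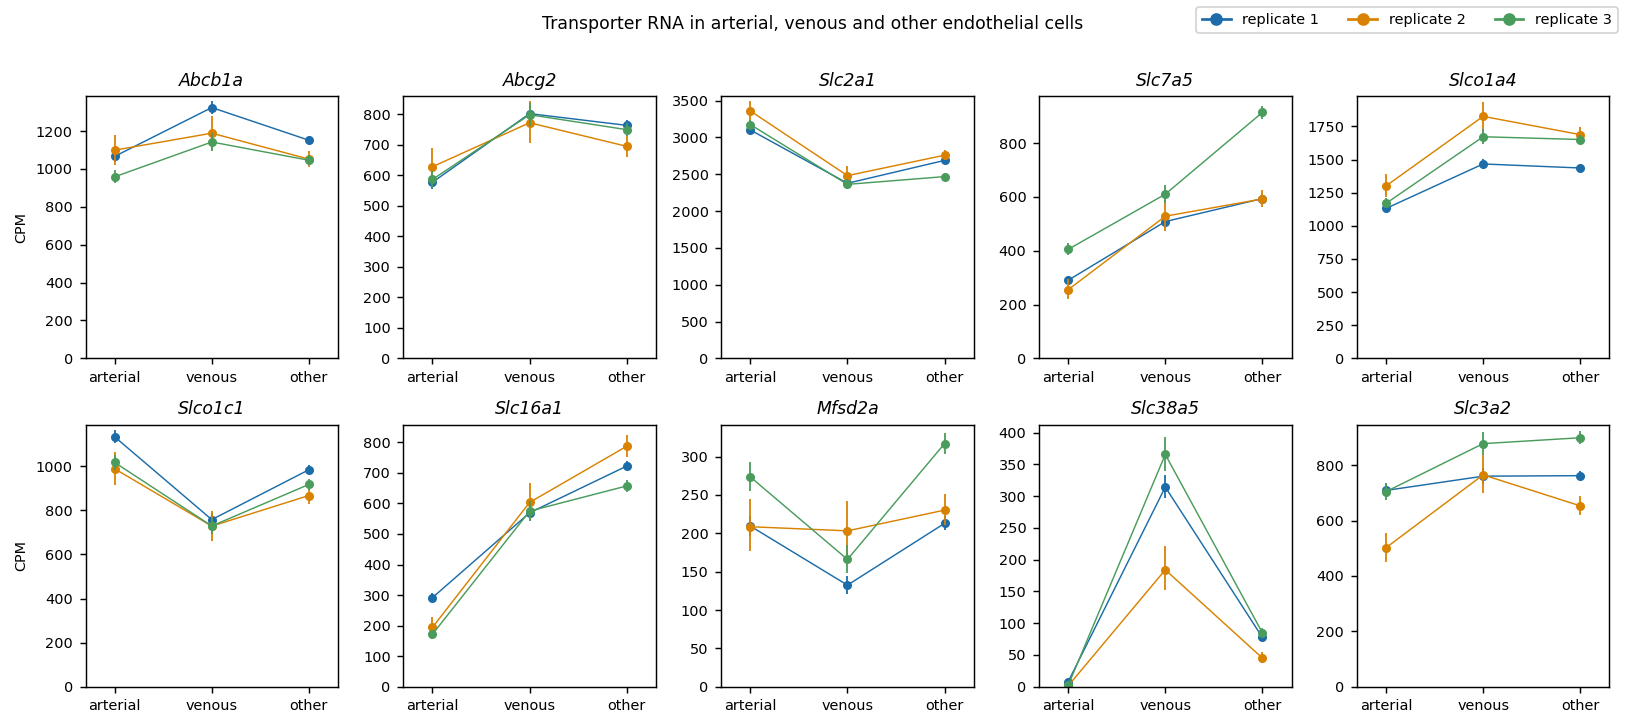
Levels in CPM (linear axes from 0) of the 10 transporter genes in arterial, venous and other endothelial cells, with a coloured line per library and error bars for 95% Poisson intervals of the counts. Slc38a5 peaks in venous cells of every library at 184 to 366 CPM and lies at 1.41 to 7.87 CPM in arterial cells, while Slc16a1 and Slc7a5 are lowest in arterial cells.

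The zones differed in depth and in markers of other cells. The median UMI count per cell was 10019.5, 11559.5 and 9378 in arterial cells and 14383, 13927.5 and 9712 in venous cells of replicates 1, 2 and 3, against 6491, 7007 and 5357 in other endothelial cells. The 5 pericyte markers summed to 21.1 to 65.2 CPM in arterial and 13.5 to 57.6 CPM in venous cells, against 51.2 to 89.8 CPM in other endothelial cells. The 5 astrocyte markers summed to 103 to 208 CPM and 41.6 to 69.9 CPM, against 99.3 to 141 CPM, with all 5 detected in every zone. The neuron list summed to 615 to 708 CPM in arterial and 28.8 to 57.9 CPM in venous cells, against 123 to 166 CPM, and Stmn2 alone gave 608, 615 and 699 CPM of the arterial sums. In the thinned fits, cells were fewer and gated anew, and replicate 2 was left without arterial and venous profiles. Those fits therefore cannot isolate the part of depth in the differences. The part of the other cells' RNA was not tested.

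Slc38a5 separated the zones by the widest margin. It stood at 7.87, 1.41 and 2.24 CPM in arterial cells (40, 1 and 7 UMIs in replicates 1, 2 and 3), at 314, 184 and 366 CPM in venous cells and at 77.6, 45.1 and 84.8 CPM in other endothelial cells. No libraries of the 3 zones overlapped. It was lower in arterial than in other endothelial cells by a log2 change of -3.85 ± 0.21 (adjusted p 2.07e-10), and higher in venous than in other endothelial cells by 2.05 ± 0.11 (adjusted p 6.36e-10, edgeR). Venous cells, 442 of the 4064 endothelial cells, held 57.4%, 46.9% and 57.1% of its endothelial UMIs, and arterial cells 1.93%, 0.408% and 0.532%. Thinned cells with a UMI made up 0.475% of arterial and 35.7% of venous cells, against 10.0% of other endothelial cells (unthinned 2.80%, 74.0% and 21.6%).

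The lactate carrier Slc16a1 and the amino acid carrier Slc7a5 were both lowest in arterial cells. Slc16a1 stood at 292, 195 and 172 CPM in arterial cells and at 569, 603 and 575 CPM in venous cells, against 722, 787 and 657 CPM in other endothelial cells. It fell in arterial cells by 1.69 ± 0.12 on the log2 scale (adjusted p 6.06e-09, edgeR), a 3.23-fold lower level, and its venous change of -0.32 ± 0.11 did not pass (adjusted p 0.0874) except without the filter on low counts (adjusted p 0.000162). Slc7a5 stood at 290, 255 and 405 CPM in arterial cells and 508, 528 and 610 CPM in venous cells, against 594, 592 and 914 CPM in other endothelial cells. It fell in arterial cells by 1.12 ± 0.08 (adjusted p 1.73e-08) and in venous cells by 0.35 ± 0.08 (adjusted p 0.00959). The venous call was lost without replicate 1 (adjusted p 0.127) and without replicate 3 (0.332). Its partner Slc3a2 stood at 709, 502 and 704 CPM in arterial cells and 760, 765 and 878 CPM in venous cells, against 762, 653 and 899 CPM in other endothelial cells. The arterial change of Slc3a2, -0.26 ± 0.08 (adjusted p 0.0398), was lost without replicate 1 (0.0856) and without replicate 3 (0.334), and the libraries of the zones overlapped.

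Mfsd2a was lowest in venous cells. It stood at 132, 203 and 166 CPM in venous cells, against 213, 230 and 317 CPM in other endothelial cells, with arterial values of 209, 209 and 274 CPM. The venous libraries all lay below the other endothelial ones, and the venous change was -0.68 ± 0.10 (adjusted p 0.000145, edgeR). It was called without each library in turn and was not called with cells thinned to 2000 UMIs (adjusted p 0.0842). The arterial change was -0.11 ± 0.09 (adjusted p 0.541, interval of 2 SE -0.29 to 0.08).

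The glucose and thyroxine carriers ran the other way, with the highest levels in arterial and the lowest in venous cells of every library. Slc2a1 stood at 3101, 3359 and 3174 CPM in arterial cells and 2377, 2480 and 2362 CPM in venous cells, against 2688, 2758 and 2467 CPM in other endothelial cells. The arterial libraries lay above all others, and the arterial change was 0.29 ± 0.07 (adjusted p 0.00504, edgeR), lost without replicate 1 (0.0818) and without replicate 3 (0.175). Slco1c1 stood at 1133, 988 and 1016 CPM in arterial cells and 757, 728 and 729 CPM in venous cells, against 984, 867 and 917 CPM in other endothelial cells. Its venous change was -0.34 ± 0.07 (adjusted p 0.00305), lost without replicate 1 (0.152) and without replicate 3 (0.0709), and its arterial change of 0.19 ± 0.07 did not pass (adjusted p 0.0778), though it did without replicate 2 (0.0301). Arterial cells exceeded venous ones by 0.43 ± 0.07 for Slc2a1 and 0.52 ± 0.07 for Slco1c1, calls that held without each library in turn.

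The organic anion carrier and the efflux pump Abcg2 were lowest in arterial cells. Slco1a4 stood at 1131, 1301 and 1169 CPM in arterial cells and 1467, 1826 and 1672 CPM in venous cells, against 1436, 1688 and 1651 CPM in other endothelial cells. Its arterial change of -0.40 ± 0.07 (adjusted p 0.000334, edgeR) was called without each library in turn. Abcg2 stood at 578, 629 and 587 CPM in arterial cells and 803, 773 and 799 CPM in venous cells, against 764, 696 and 750.3 CPM in other endothelial cells. The arterial Abcg2 values lay below all others, yet the change of -0.30 ± 0.07 (adjusted p 0.0054) was lost without replicate 1 (0.240) and without replicate 3 (0.144). Abcb1a stood at 1066, 1099 and 959 CPM in arterial cells and 1324, 1189 and 1142 CPM in venous cells, against 1152, 1052 and 1046 CPM in other endothelial cells. Neither change from other endothelial cells passed for Abcb1a, with -0.06 ± 0.07 in arterial cells (adjusted p 0.688, interval -0.20 to 0.08) and 0.15 ± 0.07 in venous cells (adjusted p 0.222, interval 0.01 to 0.30). Between arterial and venous cells its change of -0.21 ± 0.07 (adjusted p 0.0465) was lost without replicate 1 (0.526) and without replicate 3 (0.335), in the same comparison Abcg2 (0.0783) and Mfsd2a (0.0931) were lost without replicate 1, and Slc3a2 was lost without replicate 2 (0.0527) and without replicate 3 (0.122).

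**Figure D4:**
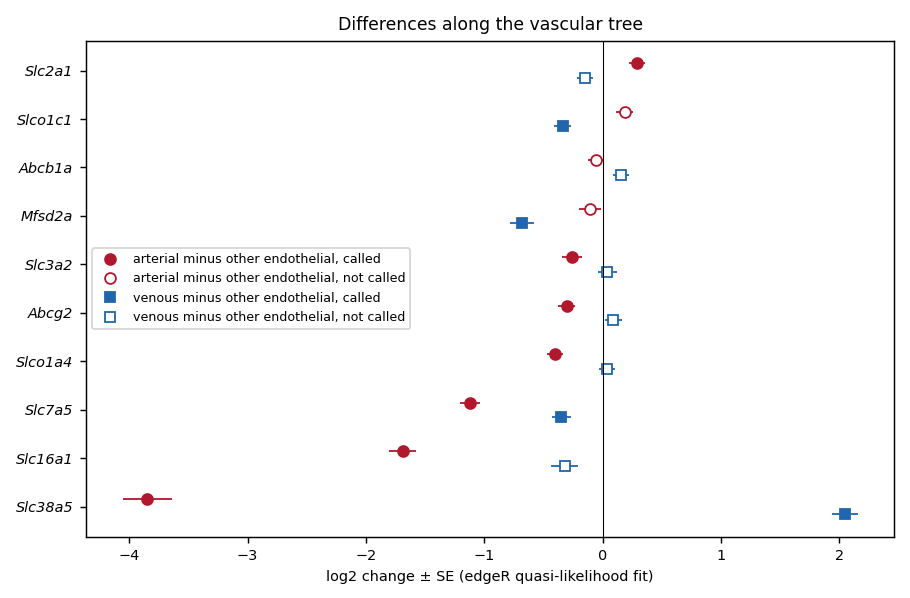
Fitted log2 change ± SE of each transporter gene in arterial (red circles) and venous (blue squares) against other endothelial cells, with filled symbols for an adjusted p under 0.05. Slc38a5 lies at -3.85 in arterial and 2.05 in venous cells, and Slc16a1 and Slc7a5 follow it in arterial cells at -1.69 and -1.12.

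Cells with fewer zone markers detected lay between the extremes for Slc38a5 in the means. The venous list summed to 225 to 372 CPM in arterial and 225 to 404 CPM in other endothelial cells. Ackr1 and Lrg1 had no UMI in arterial cells, so the sum there came from Vwf and Il1r1. A single marker from Vwf or Il1r1 thus does not set a cell apart as venous. In replicate 2, Slc38a5 was lower with 1 venous and no arterial marker (51.8 CPM) than with no marker (56.8 CPM). Over cells with 2 or more arterial markers, 1 arterial and no venous marker, no marker, 1 venous and no arterial marker, and 2 or more venous markers (823, 218, 737, 1396 and 442 cells), its mean level was 3.84, 17.7, 57.9, 87.7 and 288 CPM. Slc16a1 did not peak at the venous end, with 219, 411, 649, 835 and 583 CPM over the same bins. Slc7a5 had 317, 541, 722, 761 and 549 CPM, and in replicate 3 its highest bin was the one with no marker (1008 CPM). Mfsd2a had 231, 291, 240.0, 249.6 and 167 CPM, and the 291 CPM rested on replicate 3, which had 461 CPM in that bin against a lowest value of 184 CPM. Cells with no marker were also the shallowest, with median UMI counts of 3110 to 4844.5 by library, against 9378 to 14383 in the end bins.

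**Figure D5:**
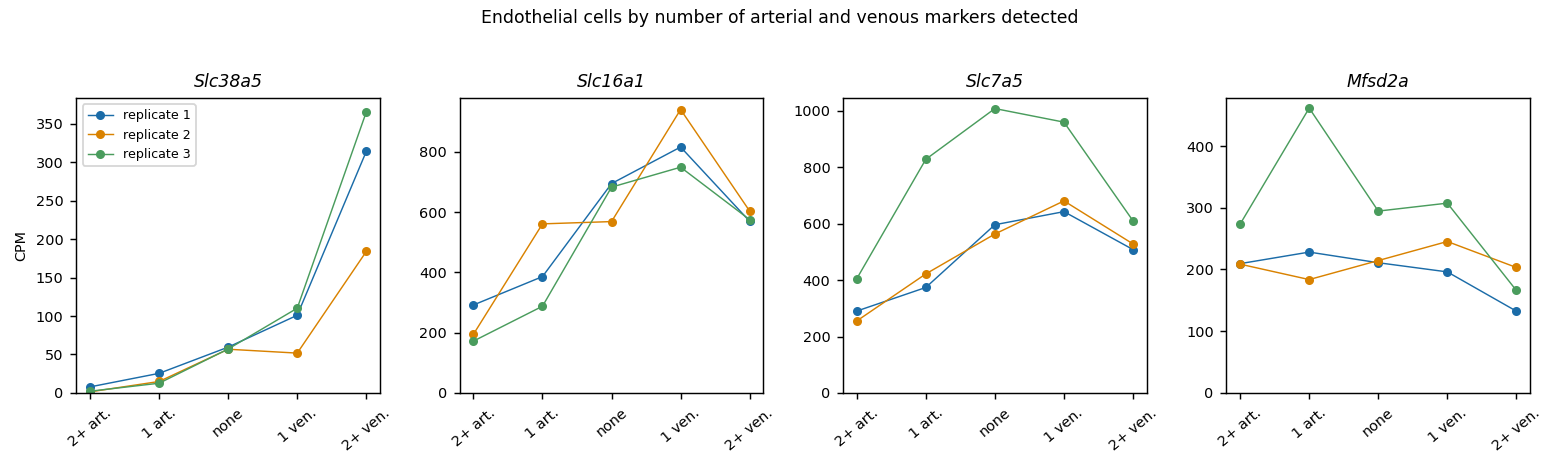
Levels in CPM (linear axes from 0) of Slc38a5, Slc16a1, Slc7a5 and Mfsd2a in endothelial cells binned by the number of arterial and venous markers detected, with a line per library. The Slc38a5 mean is 3.84 CPM at the arterial end and 288 CPM at the venous end, and Slc16a1 and Slc7a5 are highest among cells with 1 venous marker (835 and 761 CPM).

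Related genes were counted from 8 lists, chosen with earlier results of these data known. The class comparison is against the mean of the other classes' log levels, and 29.7% of all genes rose and 16.2% fell in it, against which each count below is to be read. Of the other 8 ABC efflux pumps, 2 rose, a share close to that background, and 3 fell in endothelial cells (median log2 change -1.12, against 0.06 over all genes tested). Abcc4, a pump of organic anions and drugs, rose by 4.39 ± 0.20 to 147 CPM. Abcc6 had 394 UMIs (11.3 CPM) in endothelial cells, against 3 UMIs in astrocytes and none in the other 5 classes, so its fitted change depends on the prior count and is not given. Abcc1 fell, and so did Abcb1b, the close paralog of Abcb1a, with 3.18 CPM in endothelial cells against 19.3 CPM in the other classes. Abcb1b had 56.1 CPM in border macrophages, 36.3 CPM in microglia, and 9.14 and 9.22 CPM in astrocytes and OPC. In ependymal cells and pericytes it lay below the endothelial level, at 2.58 and 2.53 CPM. Of 9 other organic anion carriers 4 were tested, of which 2 were called higher and 1, Slco3a1, lower. Slco3a1 stood at 0.449 CPM in endothelial cells, against 239 CPM in pericytes, 0.103 CPM in microglia and 1.44 to 19.3 CPM in the other 4. Neither of the 2 called higher was highest in endothelium. Slc22a8 (organic anion transporter 3) stood at 262 CPM in endothelial cells, against 406 CPM in pericytes and 0.761 to 4.11 CPM in the other 5 classes, and Slco2b1 at 75.3 CPM, against 217 CPM in microglia, 166 CPM in border macrophages and 0 to 3.39 CPM in the other 4. None of 6 tested of 7 other glucose carriers rose, and Slc2a3 (the neuronal glucose carrier GLUT3) and Slc2a8 fell. Among 9 monocarboxylate carriers and chaperones Slc16a6 fell and 5 rose, led by Slc16a4, at 112 CPM in endothelial cells against class means of 0 to 7.33 CPM, and by Bsg, basigin, the chaperone of MCT1, at 15149.8 CPM in endothelial cells against 582 CPM in the other classes. Slc16a6 stood at 4.72 CPM in endothelial cells, against 142 CPM in microglia, 64.5 CPM in border macrophages and 3.26 to 10.3 CPM in the other 4. Of 14 other amino acid carriers 4 rose and 5 fell, with the cationic carrier Slc7a1 (5.15 ± 0.19) and the taurine carrier Slc6a6 (5.11 ± 0.15) leading the rises and Slc7a2 and Slc1a4 the falls.

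Receptors and vesicle genes were counted the same way. Of 9 receptors for transport across the endothelium 6 rose and 2 fell. Lrp8, a receptor for apolipoprotein E, stood at 135 CPM in endothelial cells, against 76.7 CPM in ependymal cells and 0 to 39.0 CPM in the other 5 classes. The transferrin receptor Tfrc rose to 517 CPM in endothelial cells, against 34.2 CPM in the other classes, and Lrp1, a scavenger receptor, fell to 9.49 CPM, against 280 CPM. Of 8 genes of caveolae 6 rose and none fell, led by Cavin2 (6.75 ± 0.24) and Cav1 (5.19 ± 0.18). Cav1 was shared with OPC, at 292 CPM in endothelial cells against 131 CPM in OPC and 1.84 to 15.5 CPM in the other 5 classes. Plvap, which marks fenestrated endothelium, was detected in 2 of 4064 endothelial cells. All 16 genes of the endothelial Wnt pathway, which maintains this barrier, rose in endothelial cells, with a median of 4.67, and Foxq1 rose by 7.57 ± 0.24.

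Several of these genes moved with the zones, where 9.42% of all genes were higher and 6.46% lower in arterial, and 4.94% higher and 4.42% lower in venous, than in other endothelial cells. In arterial against other endothelial cells, 4 of 8 receptors were lower and none higher, among them Tfrc at 251 CPM in arterial cells against 603 CPM in other endothelial cells, and the leptin receptor Lepr at 5.95 CPM against 20.1 CPM. The amino acid carriers Slc38a3 and Slc7a1 were lower in arterial cells by 1.15 ± 0.10 and 0.65 ± 0.09, while the taurine carrier Slc6a6 was higher by 0.45 ± 0.07. Slc22a8 was lower in arterial cells (149 CPM against 291 CPM) and higher in venous cells (365 CPM, log2 change 0.28 ± 0.09, adjusted p 0.04998). The caveolar genes Ehd2 and Cavin3 were higher in arterial cells by 0.90 ± 0.08 and 0.77 ± 0.08. Of 7 ABC pumps tested, Abca1 and Abcb1b were among 3 higher in arterial cells, and of 6 monocarboxylate genes 4 were lower, Slc16a9 and Slc16a6 the most. Of the 16 Wnt genes, 2 were higher (Reck and Sox17), close to the background share, and 5 lower in arterial cells, Apcdd1 among them. In venous against other endothelial cells, none of the Wnt, ABC pump or amino acid genes was called, while Igf1r, Lrp1, Bsg and Slc16a6 were lower and Cavin3 was higher.

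Genes with the most similar pattern were ranked by Pearson's r of log2(CPM + 1), as a description, among genes with a mean of at least 20 CPM. Points of a library share its cells and depth. Over the 18 profiles of class and library, Abcb1a was followed most closely by 8430408G22Rik, Cdh5 and Fn1 (r 0.971 to 0.985), Slco1a4 by Ly6c1, 8430408G22Rik and Kank3, and Slc2a1 by Slc16a4, Gata2 and Ocln. Abcg2 was followed by Gpcpd1, Wdr37 and Cd2ap, Slc16a1 by Hmcn1, Prom1 and Sema3c, Slc38a5 by Gm9946, She and Sgms1, and Slc3a2 by Alas1, Slc31a1 and Gimap1 (0.836 to 0.892). Slco1c1 was followed by Mcc, Fzd4 and Efr3b, Mfsd2a by Lmcd1, Smarca2 and Limch1, and Slc7a5 by Phactr4, Bsg and Fmo2. Over the 9 zone profiles, Slc38a5 was followed by Ndnf, Fnbp1l and Rnase4 (0.984 to 0.990), Slc16a1 by Arl4a, Tiam1 and Bok, Slc2a1 by Lmo7, Osbpl9 and Glul, and Slco1c1 by Serp2, Plpp3 and Marcks. Slc7a5 was followed there by Scarb1, Extl3 and Mif4gd, Slco1a4 by Sesn1, Rpl38 and Tecpr1, Abcg2 by Smagp, Zic2 and Sox9, Abcb1a by Cpne3, Gabpb1 and Lnpep, Slc3a2 by Eci2, Dnttip1 and Ccdc107, and Mfsd2a by Rasgrp2, B4galt4 and Nom1. Among the members themselves over the zone profiles, r was -0.982 between Slc38a5 and Slc2a1 and 0.935 between Slc38a5 and Abcg2.

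On mm10, Abcb1a lies on chromosome 5 (8660077 to 8748575, plus strand), Abcg2 on chromosome 6 (58584523 to 58695676, plus), Slc2a1 on chromosome 4 (119108711 to 119137983, plus) and Slc7a5 on chromosome 8 (121881150 to 121907694, minus). Slco1a4 and Slco1c1 both lie on chromosome 6 (141805440 to 141856199, minus, and 141524368 to 141570177, plus). Slc16a1 lies on chromosome 3 (104638668 to 104658462, plus), Mfsd2a on chromosome 4 (122946850 to 122961188, minus), Slc38a5 on chromosome X (8271133 to 8280179, plus) and Slc3a2 on chromosome 19 (8706882 to 8723369, minus). Slc2a1 overlaps the opposite-strand genes Gm12867 and Gm12868, and Slc7a5 overlaps Gm20388. Counts of Abcb1a and Slco1a4 are uncertain in so far as reads could be split with the paralogs Abcb1b, Slco1a5 and Slco1a6, which was not tested.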

How the data were processed

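Raw UMI counts per gene and barcode were deposited by the authors for 3 libraries of dissociated aged hippocampus. Cell Ranger and mm10 are named in the submitters' processing notes, and the version and the use of strand are not given in the sources used here. Gene symbols altered in the deposited tables were restored.

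Barcodes were dropped below 500 UMIs, below 300 detected genes or above a mitochondrial share of 20%, and doublets called by Scrublet (scanpy 1.11.5, rate 0.06) were removed, which left 6240, 945 and 4930 barcodes. Barcodes were gated by markers (other classes with 3 or more), not clustered. Where 2 gates were met, ependymal went before astrocyte, smooth muscle before pericyte and border macrophage before microglia, and 563 other barcodes were left out.

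UMIs were summed per library and population (18 class and 9 zone profiles) and tested with edgeR 4.0.16 (quasi-likelihood, TMM, filterByExpr, library block, Benjamini-Hochberg adjustment over all genes tested) in R 4.3.3. SE is the log2 change over the square root of F, and means are over libraries. The procedure was tried on simulated counts with 200 changed genes. It recovered 99% of them for endothelial cells against the other classes and 87% for arterial against other endothelial cells. Of the calls, 3.88% and 7.45% were false. The simulated profiles had no shared library effect, so this does not test the library block. Profiles of a library come from 1 suspension, and their deviations from the zone means correlated at 0.442 to 0.814, so the library is a pairing block. Thinning drew 2000 UMIs per cell and left out cells with fewer. Shares of thinned cells kept the gates of the full counts, while the thinned fits gated cells anew.

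The members and lists were chosen with earlier results of these data known. Besides the 10 transporters, the genes named are up to 2 per list and direction with the largest called change, and the 3 most similar by Pearson's r. Some genes that this rule names are not reported here. Alternatives covered scaling, DESeq2 1.42.0, filters, the block, each library, gates, doublets and thinning.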

Additional observations from a re-analysis of the deposited data

How the results depend on the processing

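All 10 class differences were called in every alternative run, and over all genes 6204 calls became 4028 with cells thinned to 2000 UMIs. Slc38a5, Slc16a1 and Slc7a5 stayed called between arterial and other endothelial cells, and Slc38a5 between venous and other endothelial cells, in every alternative run.

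With the library pairing dropped (no replicate block), calls over all genes were 350 of 1675 for arterial against other endothelial cells, 134 of 987 for venous against other and 598 of 1987 for arterial against venous, and transporters called were 3 of 7, 1 of 4 and 3 of 10. With cells thinned to 2000 UMIs the gene counts were 317, 125 and 255, and transporters called were 4 for arterial against other and 4 for arterial against venous. That fit lacks the arterial and venous profiles of replicate 2 and rests on fewer cells, gated anew on the thinned counts. With zone cells free of markers of the other zone they were 648 genes and 4 transporters for arterial against other, and 1140 genes for arterial against venous. DESeq2 gave 997 and 583 genes for arterial and venous against other endothelial cells. Leaving out each library gave 673 to 1987 genes and 4 to 8 transporters, 266 to 1271 genes and 2 to 4 transporters, and 872 to 2316 genes and 7 to 9 transporters in the same order of comparisons. The lowest gene count was without replicate 1 each time, and the highest without replicate 2. The causes were not tested.

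Directions that reversed belonged to changes not called. Slco1c1 in arterial against other endothelial cells was -0.029 when thinned. In venous against other endothelial cells, Slco1a4 was -0.0033 without the filter on low counts and -0.084 when thinned, and Slc3a2 was -0.00082 without the filter, -0.031 when thinned and -0.025 to 0.078 with each library left out. A comparison of endothelial cells with and without Plvap was not run, since no cell had 2 or more Plvap UMIs.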
